A study of Rattus norvegicus with 11 samples.

Results

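The JAK-STAT and SOCS genes described here were 10 of the 32623 genes in the deposited table, taken by symbol. They were the receptor genes Il6r and Il6st, the kinase genes Jak1, Jak2 and Jak3, the transcription factor genes Stat3 and Stat5a, and the inhibitor genes Socs1, Socs3 and Cish. All 10 stood on a single row of the table and passed the filter on low values in every comparison. RNA came from peripheral leukocytes of male Wistar rats, 7 weeks old at the start, left after lysis of red blood cells. The NAMPT++ and NAMPT+ groups held 4 samples each, from the same 4 rats with collagen-induced arthritis (CIA). These rats were immunised with bovine type II collagen in incomplete Freund's adjuvant and boosted on day 7. They were bled on about day 8 at NAMPT++ status and on about day 14 at NAMPT+ status. The control group held 3 samples from normal healthy rats. The status was assigned by the authors from their own PCR of Nampt, so it marks a state of each animal and not a manipulation of the gene, and it cannot be told apart from the day of sampling. In the sequencing data Nampt itself was lower at NAMPT+ status in rats 1 and 3 and higher in rats 2 and 4, with an FPKM of 46.5, 10.1, 36.1 and 30.6 in NAMPT++ samples 1 to 4 and 11.4, 14.3, 27.5 and 36.9 in NAMPT+ samples 1 to 4. The Nampt level of these libraries therefore went against the order of the names in 2 of the 4 rats.

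Cytokines that signal through JAK kinases bind receptors with no enzyme activity of their own. JAKs bound to the receptor phosphorylate it and the STAT proteins, which enter the nucleus and switch on genes. Among the genes switched on are those of the SOCS proteins and CIS (the product of Cish), which bind the activated receptor or kinase and shut the signal down, so their mRNA is often used as a readout of recent signalling. In leukocytes IL-6, G-CSF and IL-10 act mainly through STAT3 and induce Socs3, whereas IL-2, GM-CSF and related cytokines act mainly through STAT5 and induce Cish.

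STAT proteins bind the sequence TTCNNNGAA, a palindrome that reads the same on both strands, so the promoters of the members were searched for it. RefSeq promoters of the GRCr8 assembly, 250 bases before to 50 after the start of each gene, were matched for 8 of the 10 members, Jak1 and Jak3 being the others. The motif was found in the windows of 2 of the 8, Cish and Socs1, whereas 8.87% of all 33469 windows of the same length held it. The windows follow annotated starts, and whether those of Socs3 and Il6st lie at a promoter was not tested. A window without a match therefore says nothing of sites elsewhere near a gene, Socs3 included. The stretch of each promoter that carries the motif is shown because Cish and Socs1 are textbook targets of STATs. It starts 250 bases before the start of the gene and is 150 bases long, 5′ to 3′ on the + strand, with motifs in capitals.
Cish, GRCr8 chr8:116850719-116850868: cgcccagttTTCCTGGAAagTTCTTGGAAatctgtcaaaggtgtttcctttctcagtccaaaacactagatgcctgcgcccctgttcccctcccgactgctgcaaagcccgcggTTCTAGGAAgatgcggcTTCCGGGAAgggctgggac
Socs1, GRCr8 chr10:5389324-5389473: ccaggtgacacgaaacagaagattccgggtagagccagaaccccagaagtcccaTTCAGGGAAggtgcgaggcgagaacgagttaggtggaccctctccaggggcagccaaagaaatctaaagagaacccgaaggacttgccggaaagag
Cish held the motif 4 times, first at 241, 230, 136 and 119 bases before the start, with no overlap between the matches. Only 2 of the 33469 windows, or 0.00598%, held it 4 times or more. Socs1 held it once, at 196 bases before the start. A match is a description of these letters, and the data hold no measure of STAT binding.

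Total counts per sample ranged from 65340027 to 85819418, and the counts of single members from 209 for Cish to 39996 for Jak1. Haemoglobin genes, 11 in all, took 6.84% to 42.8% of the counts of a sample. For that reason members are given in FPKM, which is scaled by gene length and by the total, and, where it matters, as CPM (counts scaled to a common total) after TMM scaling, which corrects for such a composition but not for length. Leukocyte markers were present. Of 8 neutrophil, 7 monocyte and 9 T cell markers, 7, 6 and 9 had a mean FPKM of at least 1, and among the neutrophil markers Ltf was at or near 0 in all samples, with 0.180 as its highest FPKM. In bulk blood samples, more cells of a type and more RNA per cell cannot be told apart.

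None of the 10 members passed the thresholds for a change in any of the 3 comparisons. Socs3, the feedback inhibitor of IL-6 and G-CSF signalling, had the largest fitted log2 fold change between NAMPT+ and NAMPT++ samples, with a mean FPKM of 107 ± 37.8 (SD, n = 4) against 272 ± 158 (SD, n = 4). The ratio of these means, 0.392, passed the threshold on the fold, but the unadjusted p of 0.055 (edgeR's quasi-likelihood test) missed that on p. Stat3, which activates Socs3, had the largest fitted log2 fold change between NAMPT++ samples and controls, with 57.9 ± 23.5 (SD, n = 4) against 34.8 ± 10.7 (SD, n = 3), although on the log2(FPKM + 1) scale Socs3 differed by more, 0.77 against 0.64. Called genes had more than a 2-fold or less than a 0.5-fold ratio of mean FPKMs together with an unadjusted p below 0.05 in edgeR's quasi-likelihood test. Between NAMPT+ and NAMPT++ samples 0.642% of the 11219 genes tested were called, between NAMPT++ samples and controls 0.686% of 11219, and between NAMPT+ samples and controls 0.497% of 11269, so 0 of 10 members is a count that such shares would also give. Unadjusted p values under 0.05 were reached by 2.28%, 1.57% and 0.870% of all genes in the same order, and by 0 members. An adjusted p under 0.05 was reached by 0% of genes in each comparison. The groups did not overlap in 0.410%, 1.10% and 0.444% of genes, and overlapped for every member.

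**Figure D1:**
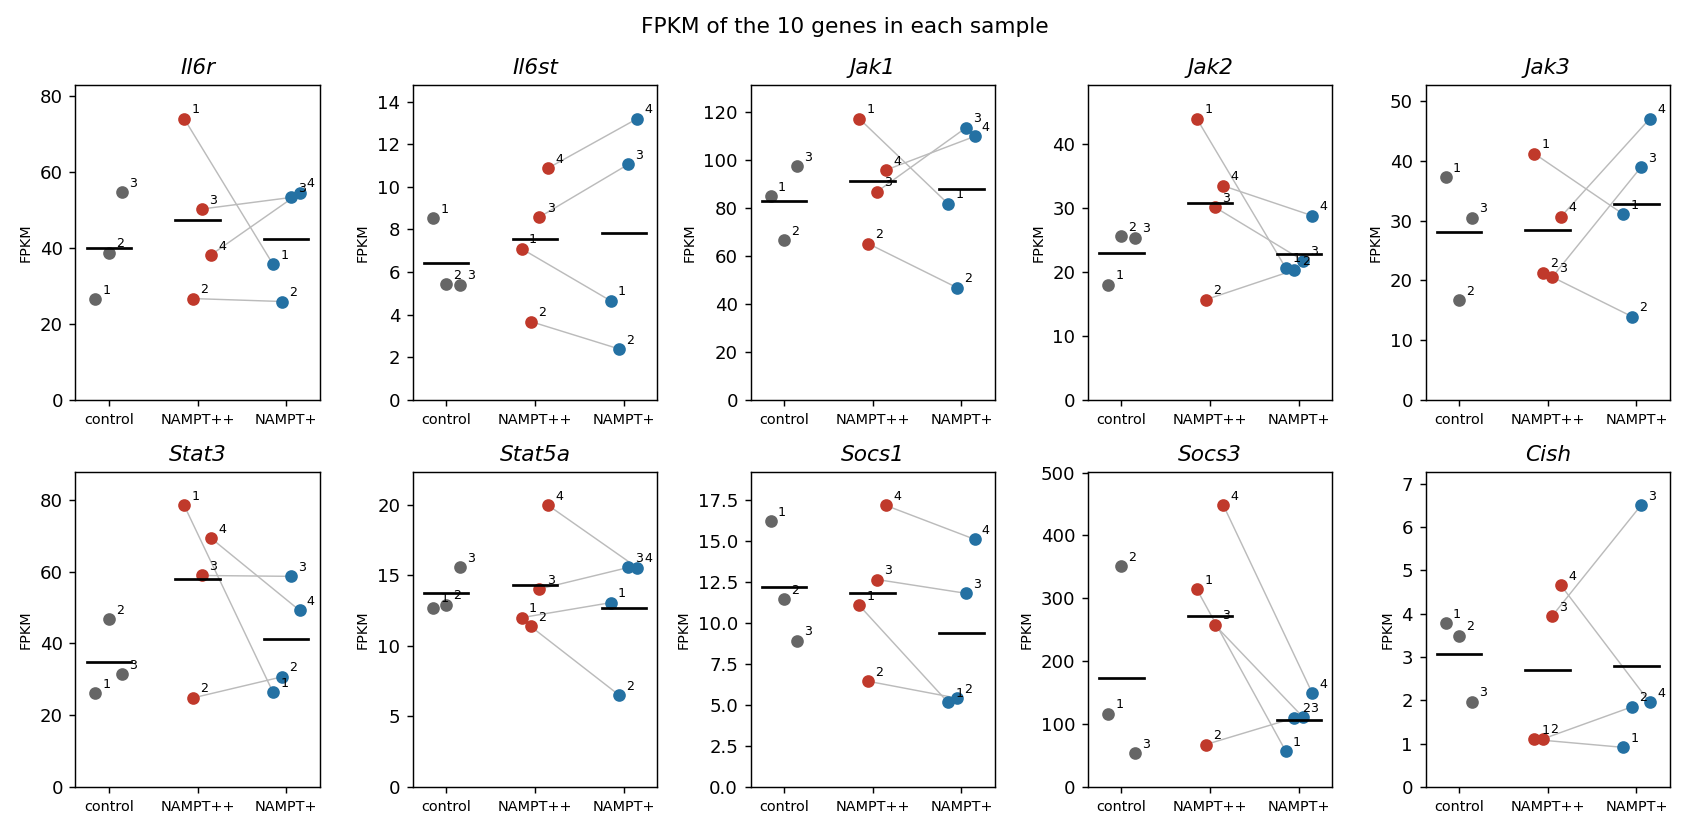
FPKM (y axis, linear from 0) of each of the 10 genes in every sample by group (x axis). Points carry the replicate number, which in the NAMPT++ and NAMPT+ groups is the rat, grey lines join the 2 samples of a rat, and black bars are group means. The groups overlap for every gene, and the wide ranges of Socs3 come from 3 NAMPT++ samples and control 2, which lie between 258 and 448.

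By mean FPKM over the 11 samples the members ranked Socs3 (185), Jak1 (87.8), Stat3 (45.5), Il6r (43.5), Jak3 (29.9), Jak2 (25.8), Stat5a (13.6), Socs1 (11.04), Il6st (7.35) and Cish (2.84). Jak1 was above Stat3, Jak2 above Stat5a, Socs1 above Il6st and Il6st above Cish in all 11 samples. Stat3 was above Il6r in 6 samples and Jak3 above Jak2 in 6, so neither pair can be ordered. Socs3 was above Jak1 in 8 samples, and Il6r above Jak3 and Stat5a above Socs1 in 10 samples each. Members also differed in how far they varied. Socs3 differed 8.43-fold between its lowest and highest sample and Cish 7.12-fold, whereas Jak1 differed 2.502-fold, and after TMM scaling these spreads were 10.9-fold, 6.32-fold and 1.45-fold. The inhibitor at the head of the order and the inhibitor at its foot were thus the most variable members on both scales.

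Il6r encodes the chain that binds IL-6, and Il6st encodes gp130, the chain that IL-6 shares with oncostatin M, LIF and other ligands for signalling. Il6r (ENSRNOG00000020811, listed on the − strand of chromosome 2, bases 189205701 to 189254628) had an FPKM of 26.6, 38.8 and 54.7 in the 3 controls, 74.0, 26.7, 50.2 and 38.2 in NAMPT++ samples 1 to 4, and 35.7, 25.9, 53.3 and 54.5 in NAMPT+ samples 1 to 4. The highest value was that of rat 1 at NAMPT++ status, and both samples of rat 2 were low on FPKM. After TMM scaling NAMPT++ sample 2 had 145 CPM, but NAMPT+ sample 2, at 212, was level with NAMPT+ sample 3, also at 212. Il6st (ENSRNOG00000013963, chromosome 2, bases 44289393 to 44314944, + strand) had 8.52, 5.43 and 5.40 in controls, 7.09, 3.69, 8.58 and 10.9 in NAMPT++ samples, and 4.66, 2.39, 11.1 and 13.2 in NAMPT+ samples. Il6st differed more between rats than between times, with rats 3 and 4 above rats 1 and 2 at both. Il6r was above Il6st in every sample, by 3.12-fold to 10.8-fold, with a mean ratio of 6.80 in controls, 6.76 in NAMPT++ and 6.86 in NAMPT+ samples. The fit gave log2 fold changes between NAMPT+ and NAMPT++ samples of -0.10 (SE 0.28) for Il6r and 0.02 (SE 0.38) for Il6st.

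The 3 kinases serve different receptors. JAK1 works with most class I and class II cytokine receptors, gp130 and the interferon receptors among them, JAK2 with the receptors for erythropoietin, G-CSF and GM-CSF, and JAK3 with the common γ chain of the IL-2 family in lymphocytes. Jak1 (ENSRNOG00000011157, chromosome 5, bases 119982943 to 120083904) measured an FPKM of 85.0, 66.7 and 97.4 in controls, 117, 65.2, 86.8 and 95.8 in NAMPT++ samples, and 81.7, 46.8, 113 and 110 in NAMPT+ samples. The lowest NAMPT+ value was in the sample with the most haemoglobin reads, and after TMM scaling the 4 NAMPT+ values lay within 1.23-fold of each other. Jak3 (ENSRNOG00000018669, chromosome 16, bases 20109200 to 20120668) had 37.3, 16.7 and 30.5 in controls, 41.2, 21.3, 20.6 and 30.7 in NAMPT++ samples, and 31.1, 13.96, 38.9 and 47.1 in NAMPT+ samples. On FPKM, Jak3 was higher at NAMPT+ status in rats 3 and 4 by 1.89-fold and 1.53-fold and lower in the other rats. After TMM scaling rat 2 was close to level, with 99.5 CPM at NAMPT++ and 98.5 at NAMPT+ status.

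Jak2 (ENSRNOG00000059968, chromosome 1, bases 247398598 to 247458509) measured an FPKM of 18.1, 25.6 and 25.4 in controls, 44.0, 15.7, 30.2 and 33.5 in NAMPT++ samples, and 20.7, 20.4, 21.8 and 28.9 in NAMPT+ samples. On FPKM, NAMPT++ samples 1, 3 and 4 were above all 3 controls and NAMPT++ sample 2 below them, but after TMM scaling samples 3 and 4 (154 and 141 CPM) were below control 2 (162). Within rats Jak2 was lower at NAMPT+ status in 3 of 4, with folds of 0.470, 0.721 and 0.861 in rats 1, 3 and 4, and 1.296-fold higher in rat 2. The log2 fold change between the 2 times was -0.27 (SE 0.29) for Jak2, 0.21 (SE 0.23) for Jak3 and -0.02 (SE 0.18) for Jak1, with an adjusted p of 0.9996 for each (edgeR). The ratio of Jak2 to Jak3 FPKM within a sample ranged from 0.485 to 1.54 in controls, from 0.737 to 1.47 in NAMPT++ and from 0.560 to 1.46 in NAMPT+ samples, so these groups overlapped as well.

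Stat3 (ENSRNOG00000019742, − strand of chromosome 10, bases 88790408 to 88842233) had an FPKM of 26.2, 46.8 and 31.5 in controls, 78.5, 24.8, 58.9 and 69.4 in NAMPT++ samples, and 26.4, 30.7, 58.7 and 49.2 in NAMPT+ samples. On FPKM, NAMPT++ samples 1, 3 and 4 stood above every control and NAMPT++ sample 2 below every control, but after TMM scaling sample 2 (129 CPM) was above controls 1 and 3 (120 and 112) and sample 4 (270) below control 2 (274). NAMPT++ samples exceeded controls by 0.64 on the log2(FPKM + 1) scale (two-sided exact permutation test, p = 0.257), and 0.58 (SE 0.42) in the fit on counts. Within rats Stat3 was lower at NAMPT+ status in rats 1 and 4, at folds of 0.336 and 0.709, close to level in rat 3 at 0.996, and 1.24-fold higher in rat 2. Stat5a (ENSRNOG00000019496), which lies next to Stat3 on chromosome 10, bases 88764732 to 88789057 on the + strand, was the steadiest member by the coefficient of variation of FPKM, at 24.6% over 11 samples. It had 12.7, 12.9 and 15.6 in controls, 12.01, 11.4, 14.04 and 20.0 in NAMPT++ samples, and 13.1, 6.49, 15.6 and 15.6 in NAMPT+ samples. Stat3 was above Stat5a in every sample, by a mean ratio of 2.57 ± 0.912 (SD, n = 3) in controls, 4.10 ± 1.83 (SD, n = 4) in NAMPT++ and 3.42 ± 1.13 (SD, n = 4) in NAMPT+ samples.

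Socs3 (ENSRNOG00000002946, − strand of chromosome 10, bases 106975178 to 106976040) had an FPKM of 116, 351 and 53.1 in controls, 314, 67.3, 258 and 448 in NAMPT++ samples, and 57.2, 110, 110 and 149.2 in NAMPT+ samples. NAMPT++ samples 1, 3 and 4 stood above every NAMPT+ sample, whereas NAMPT++ sample 2 was below 3 of them, and controls spanned most of the range. Within rats Socs3 was lower at NAMPT+ status in 3 of 4, at folds of 0.182, 0.428 and 0.333 in rats 1, 3 and 4, and 1.63-fold higher in rat 2 (exact sign-flip permutation within rats, p = 0.25). Nampt was also higher at the later time in rat 2, as it was in rat 4. The log2 fold change from counts was -1.12 (SE 0.51, adjusted p = 0.9996 from edgeR), and the difference of -1.13 on the log2(FPKM + 1) scale gave p = 0.114 (exact permutation, two-sided, where 4 against 4 samples can give no p below 0.0286). Neither of these tests used the pairing of samples by rat. By its unadjusted p Socs3 was number 305 of the 11219 genes tested.

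This result lay at the edge of the thresholds and moved across them with the settings. Socs3 was called as lower at NAMPT+ status with upper quartile scaling (-1.09), with DESeq2 (-1.13), with limma on log2(FPKM + 1) (-1.13), with no filter (-1.15) and without haemoglobin genes (-1.14), where 0.686%, 0.927%, 0.811%, 1.52% and 0.669% of all genes were called in the same order. It was not called with a pseudocount of 0.1, with the filter at a mean FPKM of 10, with all groups in a single fit or with the rat as a replicate block, which gave -1.14. Leaving out NAMPT++ sample 2 moved it to -1.42 and leaving out NAMPT+ sample 2 to -1.46, and it was called in both, where 1.45% of all genes were called. Among these settings the smallest adjusted p of Socs3 was 0.720, without NAMPT+ sample 2 (edgeR).

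Against controls, the value of Socs3 moved with single controls. The log2 fold change was 0.32 (SE 0.80) for NAMPT++ samples and -0.81 (SE 0.74) for NAMPT+ samples, and without control 2 these became 1.68 and 0.55, the second with a change of sign. Without control 3 they became -0.16, also a change of sign, and -1.30. Without control 2, Socs3 and Stat3 were called as higher in NAMPT++ samples than in controls, Stat3 at 1.11. In that fit 4.09% of all genes were called in either direction, against 0.686% with control 2. The adjusted p values were 0.549 for Socs3 and 0.546 for Stat3 (edgeR). Control 2 also had the most neutrophil and monocyte marker RNA of the controls. Its mean log2(FPKM + 1) over the neutrophil markers was 7.30 against 6.08 and 4.75 in controls 1 and 3, over the monocyte markers 6.99 against 5.68 and 6.24, and over the T cell markers 5.71 against 6.93 and 6.91. Their part in the result was not tested.

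**Figure D2:**
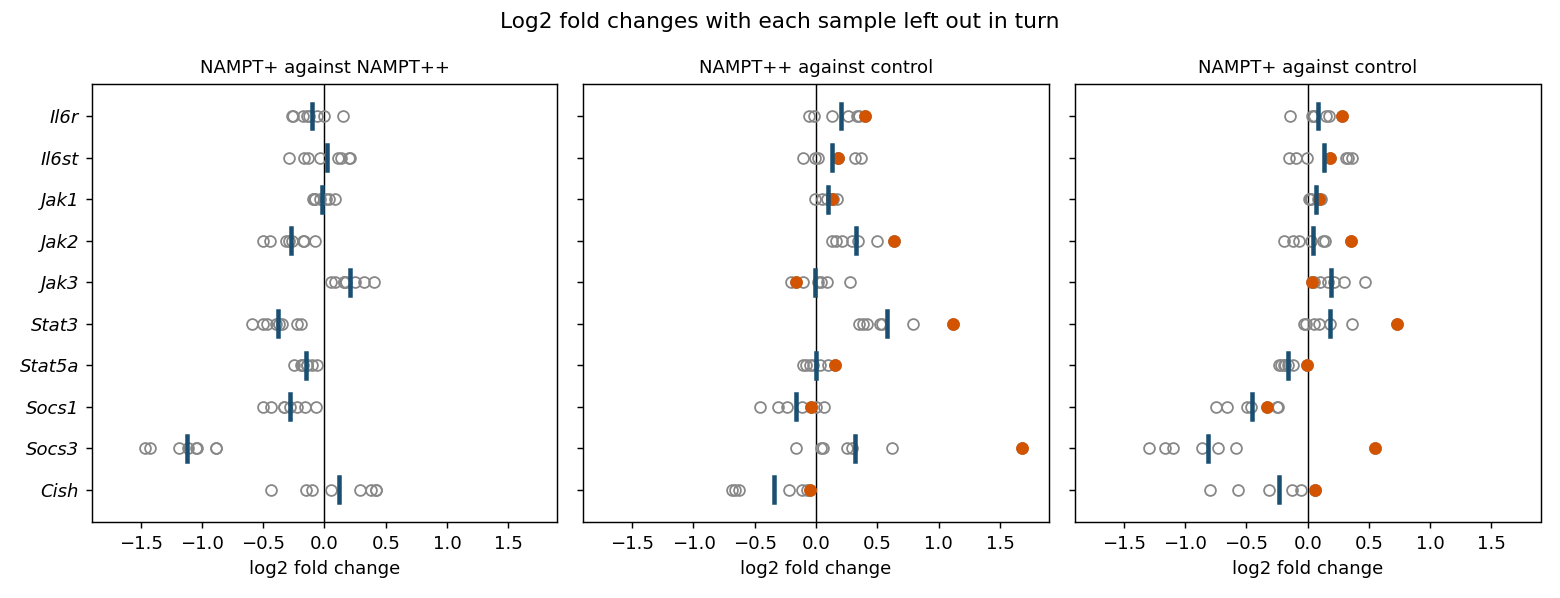
Log2 fold change (x axis) of each gene with each sample left out in turn (circles), with filled orange circles for the fits without control 2 and bars for the fit with all samples. Socs3 stayed below 0 between NAMPT+ and NAMPT++ samples in all 8 fits, from -1.46 to -0.88, and between NAMPT++ samples and controls went from 0.32 to 1.68 without control 2 and to -0.16 without control 3.

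Socs1 encodes the inhibitor that acts on JAKs downstream of interferon and γ chain receptors. Socs1 (ENSRNOG00000002568, chromosome 10, bases 4957326 to 4958461) measured an FPKM of 16.2, 11.5 and 8.91 in controls, 11.1, 6.44, 12.7 and 17.2 in NAMPT++ samples, and 5.15, 5.41, 11.8 and 15.1 in NAMPT+ samples. It was the sole member lower at NAMPT+ status in 4 of 4 rats on FPKM, at folds of 0.465, 0.840, 0.934 and 0.880 (exact sign-flip permutation, which gave the smallest p that 4 rats allow and cannot pass 0.05), but after TMM scaling it was higher in rat 2 and lower in 3 of 4. The log2 fold change was -0.28 (SE 0.32) between the times and -0.46 (SE 0.39) between NAMPT+ samples and controls. Cish (ENSRNOG00000029543, chromosome 8, bases 116054465 to 116060723) had 3.77, 3.49 and 1.96 in controls, 1.09, 1.11, 3.94 and 4.65 in NAMPT++ samples, and 0.912, 1.85, 6.49 and 1.95 in NAMPT+ samples. NAMPT++ samples fell into a low and a high pair, and NAMPT+ sample 3 was above all others. The log2 fold change between the times, 0.12, was smaller than its SE of 0.64. Socs3 exceeded Socs1 in FPKM in every sample, by 5.96-fold to 30.6-fold in controls, 10.4-fold to 28.4-fold in NAMPT++ and 9.34-fold to 20.3-fold in NAMPT+ samples.

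**Figure D3:**
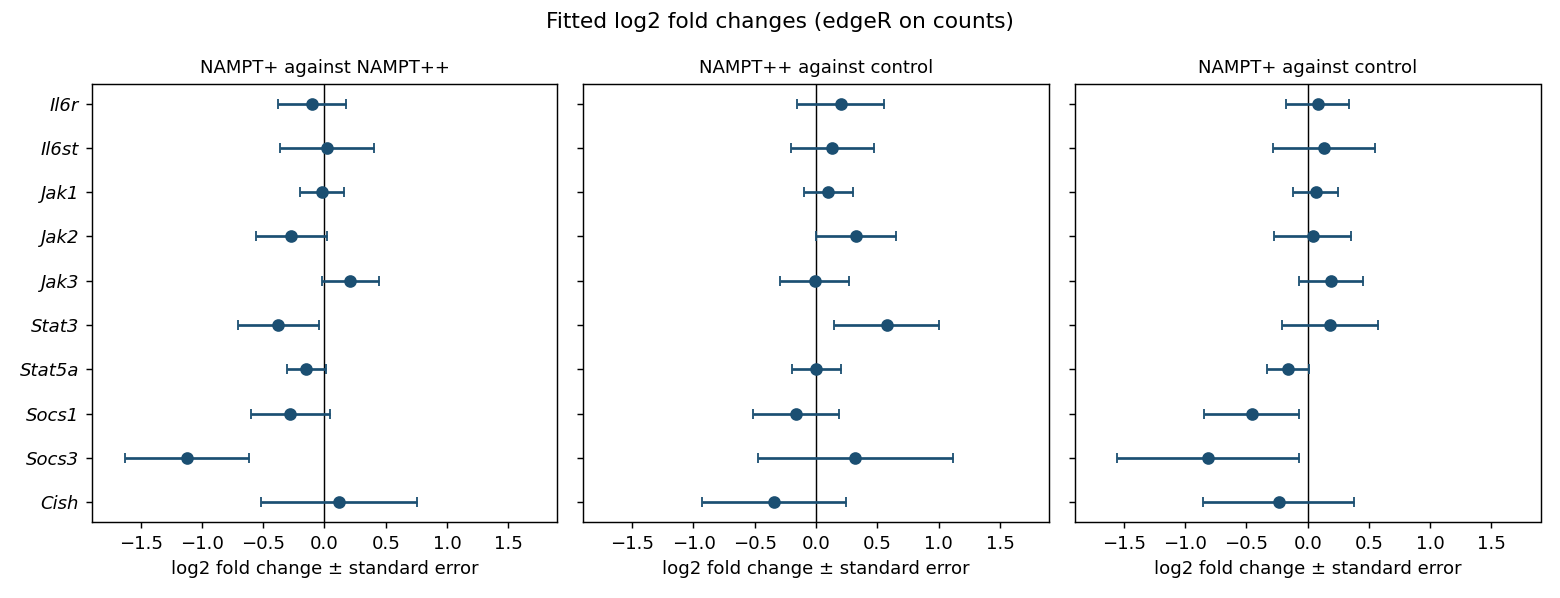
Log2 fold changes (x axis, points) with their standard errors (bars) for the 10 genes (y axis) in the 3 comparisons, from edgeR on counts. The largest is Socs3 between NAMPT+ and NAMPT++ samples at -1.12 ± 0.51 and the next Socs3 between NAMPT+ samples and controls at -0.81 ± 0.74.

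Over all members the median log2 fold change was -0.12 between NAMPT+ and NAMPT++ samples, 0.12 between NAMPT++ samples and controls and 0.05 between NAMPT+ samples and controls, where the median of all genes tested was -0.00021, 0.0018 and -0.0027. In single rats, members lower at NAMPT+ status numbered 9, 6, 4 and 6 of 10 in rats 1 to 4 on FPKM, and 9, 3, 6 and 6 after TMM scaling. Rat 1 had the most members lower on both scales, and its 2 samples differed in haemoglobin, with 6.84% of counts at NAMPT++ and 25.9% at NAMPT+ status. The comparisons share samples, so these medians are not independent of each other.

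Members moved together in part. Correlations over the 11 samples are given as a description, since 8 of the samples are pairs from the same rats and all share the scaling by depth. Stat3 and Jak2 had a Pearson's r of 0.86 on log2(FPKM + 1) and 0.84 after TMM scaling, Socs3 and Stat3 0.81 and 0.87, and Socs3 and Jak2 0.71 and 0.81. Leaving out the 2 samples farthest from the median gave 0.79, 0.81 and 0.64 on FPKM. Jak1 and Jak3 had 0.89 on FPKM and 0.59 after TMM scaling, and Jak1 and Stat5a went from 0.76 to -0.13, so these lean on the scaling. Socs1 and Il6st, with 0.87 and 0.78, made a further pair on both scales, whereas Socs3 and Jak3 were near 0 with -0.05 and -0.16.

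Members also moved with the markers of leukocytes, and Socs3, Stat3 and Jak2, which moved together, shared the neutrophil markers. Socs3 had an r of 0.84 with the mean of the neutrophil markers on FPKM and 0.87 after TMM scaling, Jak2 0.64 and 0.90, and Stat3 0.66 and 0.84. With the B cell and the T cell markers r was negative for each of these genes. The B cell markers gave -0.65 and -0.90 for Socs3, -0.27 and -0.80 for Stat3, and -0.11 and -0.60 for Jak2. The T cell markers gave -0.37 and -0.73 for Socs3, -0.08 and -0.80 for Stat3, and -0.07 and -0.89 for Jak2. Jak3 had 0.84 with the T cell markers on FPKM, its highest, and 0.54 after TMM scaling, below its 0.62 with the basophil and mast cell markers. Stat5a was highest with the monocyte markers, at 0.73 and 0.86, but leaving out the 2 samples farthest from the median monocyte level gave 0.20 and 0.69. With the erythroid markers all 10 members had negative r on FPKM, from -0.88 for Jak1 to -0.39 for Cish, and after TMM scaling these were weaker for every member, from -0.65 for Il6st to -0.04 for Cish. The neutrophil marker level was 7.86, 7.13 and 7.04 in NAMPT++ samples 1, 3 and 4, where Socs3 was high, and 5.16 in NAMPT++ sample 2. In NAMPT+ samples 1 to 4 it was 5.49, 7.36, 5.84 and 6.90. NAMPT+ sample 2 stood apart, with a neutrophil level as high as that of control 2 but an FPKM of Socs3 of 110 against 351. The part of the cell types in the differences was not tested.

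**Figure D4:**
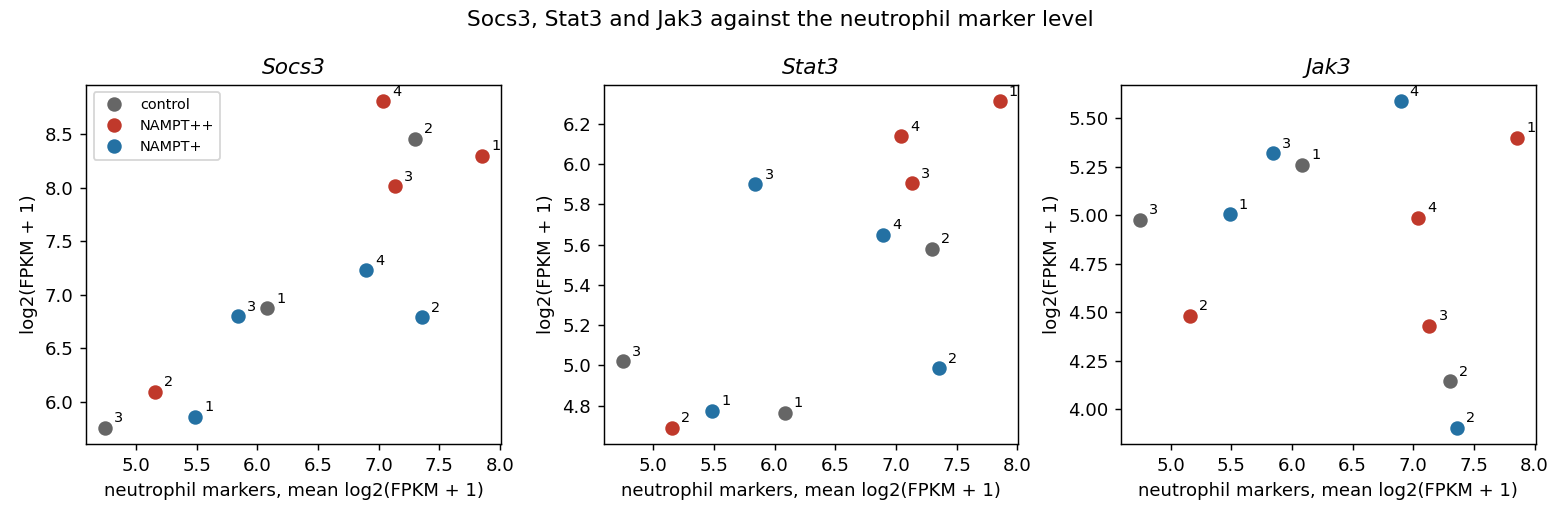
Log2(FPKM + 1) of Socs3, Stat3 and Jak3 (y axes) against the mean log2(FPKM + 1) of the neutrophil markers (x axes) in the 11 samples, coloured by group and numbered by replicate. Socs3 and Stat3 rise with the markers (r of 0.84 and 0.66) and Jak3 does not (r of -0.16). On FPKM, NAMPT+ sample 2 lies below the other samples of its marker level for all 3 genes. After TMM scaling its Jak3 (98.5 CPM) was above that of control 2 (87.4) and NAMPT++ sample 3 (86.5). Its Stat3 was then 242 CPM against 274 and 277 in these samples.

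**Figure D5:**
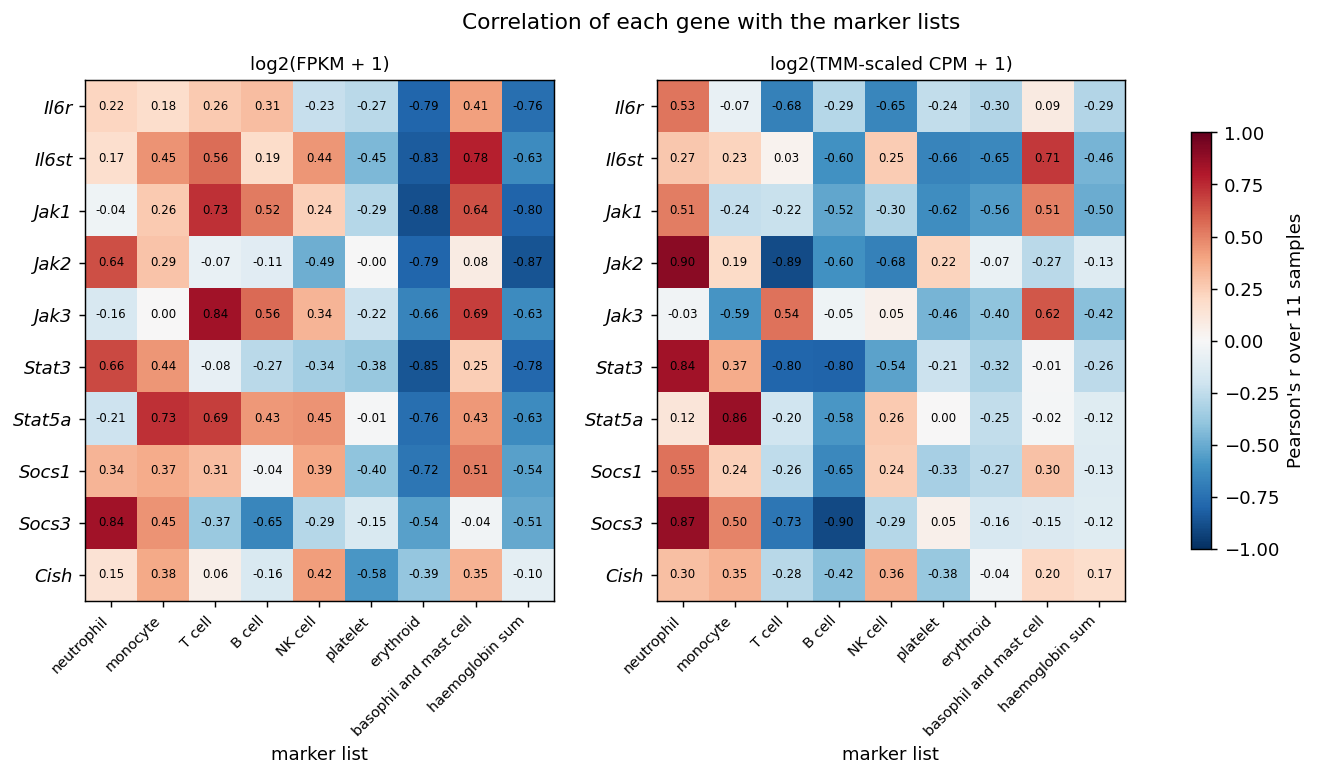
Pearson's r over 11 samples of each gene (rows) with the mean of each marker list and with the haemoglobin genes (columns), on log2(FPKM + 1) at left and after TMM scaling at right, with the colour and the number giving r. Negative r with erythroid markers and haemoglobin fill 2 columns at left and fade at right, while r of Jak2, Stat3 and Socs3 with neutrophil markers is higher at right.

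Over the 4922 genes whose mean FPKM reached 10, the gene whose pattern was most like that of Socs3 was Gadd45g, a stress-induced growth arrest gene, with an r of 0.97 on both scales over the 11 samples, followed by Sh3bp2 with 0.95 and 0.97. Gadd45g had an FPKM of 36.0, 6.01, 26.3 and 56.3 in NAMPT++ samples 1 to 4 and 4.95, 14.5, 8.23 and 14.2 in NAMPT+ samples 1 to 4, low in the same NAMPT++ sample as Socs3. Since Gadd45g was chosen by its r with Socs3 over these samples, that likeness is no separate observation. The nearest genes were Tiparp and Tmed5 for Socs1 (r of 0.95 and 0.91 on FPKM), Arap1 and Pde4b for Jak2 (0.96 and 0.96), Mettl6 and Arnt for Stat3 (0.97 and 0.96), and Chst2 and LOC688655 for Cish (0.94 and 0.92). For Il6r they were AABR07053516 and Eloa (0.97 and 0.93), for Il6st Adar and Elf4 (0.98 and 0.97), for Jak1 Zfp335 and Rnf111 (0.99 and 0.98), for Jak3 Eps15 and Ddx39a (0.99 and 0.98), and for Stat5a Fau and Eml4 (0.96 and 0.96). Tiparp and Gadd45g remained the most alike gene of Socs1 and Socs3 after TMM scaling, as did AABR07053516 for Il6r, whereas Fau went from first to number 27 for Stat5a and Eps15 from first to number 18 for Jak3.

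The wider pathway was counted over a list of 95 further genes, of which 92 were found by symbol. The rest of the list was not analysed here. Of these 92, 67 were tested between NAMPT+ and NAMPT++ samples, 69 between NAMPT++ samples and controls and 67 between NAMPT+ samples and controls, and 0 were called in any, with 0 at an unadjusted p under 0.05 and 0 without overlap. With DESeq2, 1 was called between NAMPT+ and NAMPT++ samples (Il10, lower), 0 between NAMPT++ samples and controls and 1 between NAMPT+ samples and controls (Ifng, lower), where DESeq2 called 0.927%, 1.08% and 0.648% of all genes. The median log2 fold change of the tested genes was -0.16, 0.14 and 0.01 in the same order. By role, medians between NAMPT+ and NAMPT++ samples ran from -0.26 for 15 targets and 8 ligands and -0.20 for 22 receptors to 0.12 for the 5 other SOCS genes.

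Of the other STATs the most abundant were Stat6, which serves IL-4, and Stat5b, the close relative of Stat5a. Stat5b had a mean FPKM of 22.6 ± 2.41 (SD, n = 3) in controls, 35.1 ± 19.6 (SD, n = 4) in NAMPT++ and 27.5 ± 10.5 (SD, n = 4) in NAMPT+ samples, and Stat6 had 28.0, 38.4 and 32.3. Of the other SOCS genes Socs5 had means of 12.9, 14.1 and 16.1 and Socs4 of 8.09, 7.53 and 8.17 in the same groups. Among the phosphatases, Ptprc, the leukocyte surface phosphatase CD45, had means of 204, 207 and 209, whereas Ptpn1, which dephosphorylates JAK2, had 76.0 ± 50.9 (SD, n = 3), 138 ± 63.7 (SD, n = 4) and 81.2 ± 23.8 (SD, n = 4). Ptpn1 was low in the same NAMPT++ sample as Socs3, at 43.0 against 168 to 174 in the other samples of the group.

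Csf3r, the G-CSF receptor of neutrophils, whose signal runs through JAK2 and STAT3, had an FPKM of 140, 175 and 42.4 in controls, 1072, 53.6, 173 and 126 in NAMPT++ samples, and 61.3, 178, 130 and 283 in NAMPT+ samples, so that 1 sample set the NAMPT++ mean. Ifngr1, a chain of the receptor for interferon γ, had means of 207, 292 and 217 in controls, NAMPT++ and NAMPT+ samples. Ebi3, a subunit of IL-27, had 13.1, 173 and 14.3 in controls, 31.9, 23.8, 209 and 256 in NAMPT++ samples, and 21.1, 124, 55.2 and 36.0 in NAMPT+ samples, the high control again being control 2. Osm, which encodes oncostatin M, a ligand of gp130, had means of 76.5 ± 71.2 (SD, n = 3), 35.3 ± 33.4 (SD, n = 4) and 45.4 ± 26.3 (SD, n = 4). The STAT3 targets Junb and Pim1 had means of 1239, 1126 and 822 and of 392.04, 545 and 379.

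Some cytokine genes are given although they were chosen after their values were seen. Il6, the ligand of Il6r, was low throughout, at 0.688, 8.56 and 1.51 in controls, 0.818 to 2.44 in NAMPT++ and 0.938 to 1.49 in NAMPT+ samples, with its highest value in control 2. Il23a, the IL-23 subunit, had 15.8, 2.87, 10.1 and 8.27 in NAMPT++ samples 1 to 4 and 2.04, 5.12, 3.20 and 3.999 in NAMPT+ samples 1 to 4, again with NAMPT++ sample 2 low and rat 2 alone higher at the later time. Its log2 fold change was -1.07 (SE 0.56, adjusted p = 0.9996 from edgeR). Without control 2, 11 genes of the wider list were called as higher in NAMPT++ samples than in controls, Ebi3 by 3.33 and Bcl3 by 1.86 on the log2 scale among them, but in that fit 4.09% of all genes were called.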

How the data were processed

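RNA of peripheral leukocytes was sequenced by the authors as poly(A) libraries in paired-end reads. The deposited extraction text mentions retinas, against the sample sources and the paper, and leukocytes were assumed. The deposited counts are whole numbers of reads per gene made by the authors without normalization. The deposited FPKM values are the fragments of a gene scaled by its length and the sample's total, with 0.0001 standing for 0, and were read as such. The submitters' processing notes name cutadapt 1.9, HISAT2 2.0.4 and StringTie 1.3.4. The genome build and the counting program are not given in the sources used here, so positions are those of the table.

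Counts were fitted for each pair of groups with edgeR 4.0.16 (quasi-likelihood test, TMM normalization) under R 4.3.3, over all genes whose mean FPKM reached 1, with Benjamini-Hochberg adjustment over all genes tested. The thresholds for a call (fold of 2, unadjusted p of 0.05) are those of the study. Single genes were compared on log2(FPKM + 1) by two-sided exact permutation of the samples and by sign-flips within rats, over 30 comparisons. The main fits and the permutation of samples treated samples of the same rat as independent, whereas the sign-flips and the replicate block used the pairing. Alternatives used DESeq2 1.42.0 and limma 3.58.1, and the fits were tested on simulated data. Sequences came from RefSeq tables of GRCr8. The paper states that the same 4 CIA rats were sampled at both statuses, and samples were matched to a rat by the number in the deposited descriptions. Over genes, the departures of matched samples from the group means correlated at -0.27, -0.24, 0.23 and 0.09 in rats 1 to 4. These values do not by themselves show the matching. All members are named, with, for each role of the wider list, every called gene and the 2 with the highest mean FPKM, and for each member the 2 genes most alike by Pearson's r. The members and lists were chosen with earlier results of these data known. TMM-scaled values for correlations and the fold from the fitted difference were added after seeing the data.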

Additional observations from a re-analysis of the deposited data

Results flagged for a closer look

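In 44 groups of 4 samples (10 members and 12 genes of the wider pathway at NAMPT++ and NAMPT+ status) the gap between an extreme sample and its nearest neighbour was set against the range by Dixon's ratio, and 3 passed its 95% critical value, where chance passes about 1 in 20. Jak2 had an FPKM of 28.9 in NAMPT+ sample 4 against 20.4 to 21.8 in the other samples of that group, with a ratio that barely passed. Ptpn1 had 43.0 in NAMPT++ sample 2 against 168 to 174. Csf3r had 1072 in NAMPT++ sample 1 against 53.6 to 173, the sample with the lowest haemoglobin share and the highest neutrophil marker level. The part of haemoglobin and of neutrophils in these values was not tested.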

How the results depend on the processing

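No member passed the thresholds, and the sole member call that turned with a setting other than a left-out sample was Socs3 between NAMPT+ and NAMPT++ samples, 1 member called with upper quartile scaling, DESeq2, limma on log2(FPKM + 1), no filter and haemoglobin genes left out, where 0.686%, 0.927%, 0.811%, 1.52% and 0.669% of all genes were called. With adjusted p as the rule, 0 members were called. Of the wider list 1 gene was called with DESeq2 and with limma at either pseudocount and 2 without the filter between NAMPT+ and NAMPT++ samples, and 1 with DESeq2 between NAMPT+ samples and controls, where the shares of all genes were 0.927%, 0.811%, 0.758%, 1.52% and 0.648%.

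Small differences changed sign. Between NAMPT+ and NAMPT++ samples Jak1 went to 0.020 with upper quartile scaling and 0.040 with a mean FPKM of at least 10. Il6st went to -0.099 and -0.14 in limma at pseudocounts of 1 and 0.1, -0.012 without the filter, -0.0030 without haemoglobin genes and -0.055 with the rat as a replicate block. Cish went to -0.0087 and -0.014 in limma. Between NAMPT++ samples and controls Stat5a went to -0.052 with upper quartile scaling and -0.054 with a mean FPKM of at least 10, and Jak3 to 0.0028 in DESeq2, 0.031 and 0.033 in limma and 0.0044 without the filter. Between NAMPT+ samples and controls Jak2 went to -0.0030 and -0.0029 in limma. The cause was not tested.

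Leaving out each sample in turn gave 0 to 1 members and 0 to 3 wider genes called between NAMPT+ and NAMPT++ samples, 0 to 2 and 0 to 11 between NAMPT++ samples and controls, and 0 to 1 wider genes between NAMPT+ samples and controls. The same fits called 0.521% to 1.45%, 0.474% to 4.09% and 0.438% to 1.20% of all genes. Log2 fold changes that crossed 0 ran, between NAMPT+ and NAMPT++ samples, from -0.44 to 0.42 for Cish, -0.27 to 0.15 for Il6r, -0.29 to 0.21 for Il6st and -0.094 to 0.085 for Jak1. Between NAMPT++ samples and controls they ran from -0.055 to 0.40 for Il6r, -0.11 to 0.37 for Il6st, -0.010 to 0.17 for Jak1, -0.21 to 0.28 for Jak3, -0.45 to 0.062 for Socs1, -0.16 to 1.68 for Socs3 and -0.11 to 0.15 for Stat5a. Between NAMPT+ samples and controls they ran from -0.80 to 0.064 for Cish, -0.14 to 0.28 for Il6r, -0.15 to 0.36 for Il6st, -0.20 to 0.36 for Jak2, -1.30 to 0.55 for Socs3 and -0.033 to 0.73 for Stat3.

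The replicate block changed no call of a member (0 called). No member has a second row under its symbol, so summing such rows gave no value.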
